A study of Mus musculus with 9 samples.

Results

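Genes of the mesothelium and epicardium were followed through every heart of a mouse study of myocardial ischemia/reperfusion injury. The set held 10 of the 54532 genes in the count table. It was chosen by symbol with the counts of these libraries already known, so every value of these genes is a description, and no P-value is given for them. The members were Msln, Muc16, Upk3b, Upk1b, Chst4, Nkain4, Krt8, Krt18, Krt19 and Wt1, and all 10 had reads in at least 6 of the 9 libraries.

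RNA came from hearts of young adult male C57BL/6J mice in 3 groups of 3 animals, with 1 library per animal. In MIRI mice the left anterior descending coronary artery was tied and then released, and the heart was taken a day later. GXNI mice had the same operation and were given Guanxinning injection, a preparation of danshen and chuanxiong, into the tail vein, whereas the other groups received saline. In sham mice the chest was opened and a thread was passed but not tied. MIRI and GXNI mice together are called I/R mice here.

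The mesothelium is a single layer of flat cells that covers the lungs, the abdominal organs and the heart. Over the heart it is called the epicardium. Its cells carry simple-epithelium keratins and surface glycoproteins, and they make the transcription factor Wt1. In the adult the layer is quiet, and after cardiac injury it is known to be reactivated. In bulk tissue, fewer cells of a type and less RNA per cell cannot be told apart.

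The labels of 2 libraries need care. Over 15207 genes, each sham library was closest to another sham library, whereas none of the 6 I/R libraries was closest to a library of its own label. MIRI 2 was closest to GXNI 1 (Spearman rho = 0.982), GXNI 3 was closest to MIRI 3 (rho = 0.987), and GXNI 1 was closest to sham 1 (rho = 0.984). The labels of MIRI 2 and GXNI 3 may have been exchanged, but neither this nor another reason for their profiles was tested here. The groups below follow the labels, so each MIRI or GXNI mean and each change between these groups holds only for the libraries as labelled. Changes without both libraries are given beside the main ones for Msln, Upk3b, Upk1b and Krt8, and the counts of calls without them stand with the effects of the processing. The comparison of all I/R mice with sham mice does not depend on which I/R label a library carries.

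Total counts ranged from 17119454 to 22811295 per library, so that 3 counts equal 0.130 to 0.176 CPM (counts scaled to a fixed library total after TMM normalization, which corrects for composition). The labels name cardiomyocytes, and all 8 cardiomyocyte markers were detected, with a summed level of 28645 to 45501 CPM. Endothelial markers summed to 617 to 1097 CPM and fibroblast markers to 673 to 1945 CPM in the same libraries. The RNA was thus that of tissue with several cell types. Of the genes known from atrial cardiomyocytes, Myl7 had 30 reads in MIRI 2 and at most 15 in any other library. Sln had 23 reads in MIRI 2 and at most 5 elsewhere, and Dkk3 250 and at most 67. Nppa had 772 to 15520 reads, with 2771 in MIRI 2. Adipocyte markers summed to 8.17 CPM in MIRI 2 and to at most 1.63 CPM in any other library. The share of atrium or of heart surface in each sample was not measured.

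The promoters of 3 members are shown because they stand for the patterns described below. Upk3b and Chst4 varied together across the hearts, and Krt18 did not vary with them. The windows are the 250 bases before the RefSeq start of each gene in GRCm38.p6, printed 5′ to 3′ on the strand of the gene. Upk3b lies on the forward strand with its window at chr5:136038246-136038495, Chst4 on the reverse strand at chr8:110039335-110039584, and Krt18 on the forward strand at chr15:102027966-102028215. Capitals mark the motif matches.
Upk3b: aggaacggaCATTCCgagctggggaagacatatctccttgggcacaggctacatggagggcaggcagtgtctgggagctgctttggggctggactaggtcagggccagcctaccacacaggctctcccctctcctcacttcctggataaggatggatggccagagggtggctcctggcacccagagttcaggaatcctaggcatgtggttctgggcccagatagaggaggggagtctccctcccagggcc
Chst4: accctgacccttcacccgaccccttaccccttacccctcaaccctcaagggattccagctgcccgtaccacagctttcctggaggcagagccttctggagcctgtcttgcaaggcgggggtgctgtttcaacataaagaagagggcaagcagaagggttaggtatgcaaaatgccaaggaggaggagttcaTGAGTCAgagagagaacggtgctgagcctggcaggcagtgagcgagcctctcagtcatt
Krt18: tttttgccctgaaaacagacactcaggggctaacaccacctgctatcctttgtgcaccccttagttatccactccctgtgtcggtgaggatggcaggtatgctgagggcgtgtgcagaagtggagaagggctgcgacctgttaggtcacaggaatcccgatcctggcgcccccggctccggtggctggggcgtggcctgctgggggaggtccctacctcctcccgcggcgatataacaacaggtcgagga
Both strands were searched for the core promoter box with the letters TATAAA, which 12.4% of 32851 promoter windows of the same length held. They were also searched for the box bound by Sp1 with the letters GGGCGG, held by 32.7% of the windows. The site bound by AP-1, with the letters TGANTCA, was in 6.75% of them, and that bound by TEAD factors, with the letters GGAATG, in 12.6%. The Upk3b window held 1 TEAD match and the Chst4 window 1 AP-1 match. The windows of Krt18, Krt8 and Muc16 held none of these letters, which says nothing of the factors themselves, and 5 of the 10 members had a window in the RefSeq table.

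Msln encodes mesothelin, a glycoprotein anchored on the outer face of the cell membrane of mesothelial cells. Its gene spans bases 25748613 to 25754378 of chromosome 17, reverse strand (GENCODE M21, GRCm38). Its level was 8.76, 3.12 and 2.62 CPM in sham 1 to 3. It was 0.465, 2.76 and 0.606 CPM in MIRI 1 to 3, and 27.4, 3.12 and 0.232 CPM in GXNI 1 to 3. GXNI 1 was thus far above every other heart and GXNI 3 below every other, although both carry the same label. The group means were 4.83 ± 3.41 CPM in sham, 1.28 ± 1.29 CPM in MIRI and 10.3 ± 14.9 CPM in GXNI mice (SD, n = 3), and in the GXNI group the SD exceeded the mean. The log2 fold change of Msln was -1.94 ± 0.78 (SE) when MIRI was set against sham, and 3.04 ± 1.52 for GXNI against MIRI. Without GXNI 1 the latter was 0.43. Without the libraries labelled MIRI 2 and GXNI 3 the changes were -3.15 and 4.83.

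Muc16, the mucin also known as CA125, is the binding partner of mesothelin. The sham hearts held 22, 13 and 7 counts of it, the MIRI hearts 0, 2 and 1, and the GXNI hearts 32, 2 and 0. Every MIRI heart lay below every sham heart. With only 3 counts in the MIRI group against 42 in sham hearts, the 95% interval of the ratio of sham to MIRI was 4.80 to 75.7, which covers counting error only. GXNI 1 was again the highest heart, at 1.59 CPM, and the other GXNI hearts lay within the range of the MIRI hearts.

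Upk3b and Upk1b encode uroplakins, membrane proteins first known from the bladder surface and also made by mesothelial cells. Upk3b was at 4.51, 1.64 and 2.62 CPM in sham hearts, 0, 1.70 and 0.346 CPM in MIRI hearts, and 12.1, 1.54 and 0 CPM in GXNI hearts. Upk1b was at 3.55, 1.19 and 1.45 CPM in sham hearts, 0, 0.999 and 0.260 CPM in MIRI hearts, and 8.59, 0.942 and 0 CPM in GXNI hearts. Both genes were thus without a read in MIRI 1 and GXNI 3, which at this depth allows up to 0.139 and 0.174 CPM. Where both had reads, the level of Upk3b per kilobase was 0.753 to 1.07 times that of Upk1b, whereas the level of Upk3b itself ranged from 0.346 to 12.1 CPM in these 7 hearts. In MIRI against sham the log2 fold change was -2.15 ± 1.02 for Upk3b, whose groups overlapped, and -2.35 ± 0.97 for Upk1b, whose groups did not overlap. Without MIRI 2 and GXNI 3 these changes were -3.99 and -3.88, and for GXNI against MIRI the change of Upk3b was 2.78 ± 1.81 with and 5.24 without both libraries.

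Chst4 encodes a sulfotransferase that adds sulfate to N-acetylglucosamine on glycoproteins. Its counts were 12, 2 and 9 in sham hearts, 0, 3 and 0 in MIRI hearts, and 36, 6 and 0 in GXNI hearts. The pooled sham level was 8.22 times the MIRI level (95% interval 2.48 to 42.8, counting error only), and the groups overlapped through MIRI 2. Chst4 passed the filter on low counts in none of the 4 comparisons.

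Nkain4 encodes a small membrane protein that interacts with the sodium-potassium pump. Its counts were 25, 7 and 10 in sham hearts, 1, 16 and 0 in MIRI hearts, and 68, 11 and 0 in GXNI hearts. Here too GXNI 1 was the highest heart, and MIRI 2 lay within the sham range while MIRI 1 and MIRI 3 lay under it. The antisense gene Gm14341 overlaps Nkain4, and since the strand setting of the counting was not given in the sources used here, reads of the pair cannot be told apart.

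**Figure D1:**
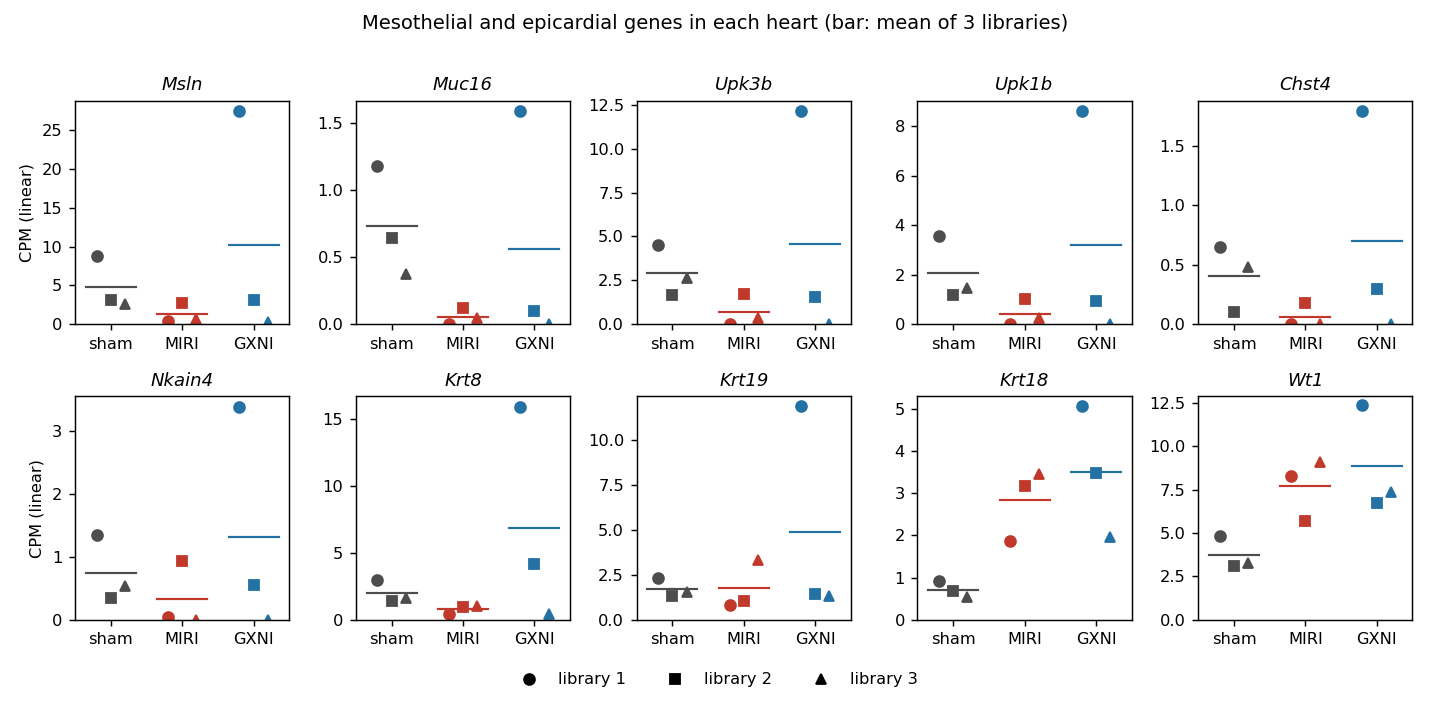
Level of each of the 10 genes in scaled counts (CPM, linear axis from 0, a scale of its own for each gene) by group, where circles, squares and triangles are libraries 1, 2 and 3 and bars are group means of 3 libraries. GXNI 1 is the highest library for all 10 genes, at 27.4 CPM for Msln, and all I/R libraries lie above all sham libraries for Krt18 and Wt1.

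Keratins 8, 18 and 19 are the filament proteins of simple epithelia. Keratin 8 is a type II keratin that pairs with the type I keratins 18 and 19. Krt8 and Krt18 are neighbours on chromosome 15, with 23697 bases between them, but their levels did not go together. Keratins form a multigene family, so these values are uncertain as far as reads were split among similar genes, and Krt8 overlaps the long noncoding gene Gm36026 on the other strand.

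Krt8 was at 2.95, 1.44 and 1.66 CPM in sham hearts, 0.418, 0.940 and 1.04 CPM in MIRI hearts, and 15.9, 4.17 and 0.406 CPM in GXNI hearts. All MIRI hearts lay below all sham hearts, 2 of the GXNI hearts above them, and GXNI 3 below them. For MIRI against sham the log2 fold change was -1.32 ± 0.45, and for GXNI against MIRI it was 3.11 ± 1.16. Without MIRI 2 and GXNI 3 they were -1.45 and 3.78.

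Krt18 was at 0.913, 0.694 and 0.535 CPM in sham hearts, 1.86, 3.17 and 3.46 CPM in MIRI hearts, and 5.07, 3.47 and 1.97 CPM in GXNI hearts. All 6 I/R hearts lay above all 3 sham hearts, including MIRI 2 and GXNI 3. The mean was 0.714 ± 0.190 CPM in sham and 3.17 ± 1.18 CPM in I/R hearts (SD, n = 3 and n = 6), a log2 fold change of 2.15 ± 0.39. It was 1.99 ± 0.36 in MIRI and 2.30 ± 0.43 in GXNI against the same sham hearts, and 0.32 ± 0.43 in GXNI against MIRI.

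Krt19 was at 2.31, 1.34 and 1.55 CPM in sham hearts, 0.837, 1.06 and 3.33 CPM in MIRI hearts, and 11.9, 1.44 and 1.33 CPM in GXNI hearts. The groups overlapped in each of the 4 comparisons. The log2 fold change of MIRI against sham was 0.03 ± 0.56 and would be -0.86 without MIRI 3.

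Per kilobase of exon, Krt8 stood at 2.37, 1.52 and 2.28 times the level of Krt18 in sham hearts. The ratio was 0.165, 0.217 and 0.220 in MIRI hearts and 2.31, 0.881 and 0.151 in GXNI hearts. Krt8 was thus above Krt18 in the sham hearts and in GXNI 1, and under it in the other 5 I/R hearts. MIRI 2, which stood apart from its label in its whole profile, had the keratin ratio of the other MIRI hearts.

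Wt1 encodes a zinc-finger transcription factor that marks the embryonic epicardium and is known to be made in it again after injury. Its gene spans bases 105126529 to 105173616 of chromosome 2, forward strand. Its level was 4.83, 3.08 and 3.27 CPM in sham hearts, 8.32, 5.70 and 9.09 CPM in MIRI hearts, and 12.4, 6.74 and 7.37 CPM in GXNI hearts. All 6 I/R hearts lay above all sham hearts, and the lowest of them was MIRI 2. The mean was 3.72 ± 0.97 CPM in sham and 8.27 ± 2.35 CPM in I/R hearts (SD, n = 3 and n = 6), with a log2 fold change of 1.16 ± 0.27. The change was 1.06 ± 0.28 in MIRI and 1.26 ± 0.32 in GXNI mice against the same sham mice, and 0.21 ± 0.32 in GXNI against MIRI.

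Msln and Wt1 therefore differed in their order between hearts. Per kilobase, Msln stood at 3.66, 2.05 and 1.62 times the level of Wt1 in sham hearts. The ratio was 0.113, 0.980 and 0.135 in MIRI hearts and 4.46, 0.937 and 0.0637 in GXNI hearts. Of the I/R hearts, GXNI 1 alone had more Msln than Wt1.

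**Figure D2:**
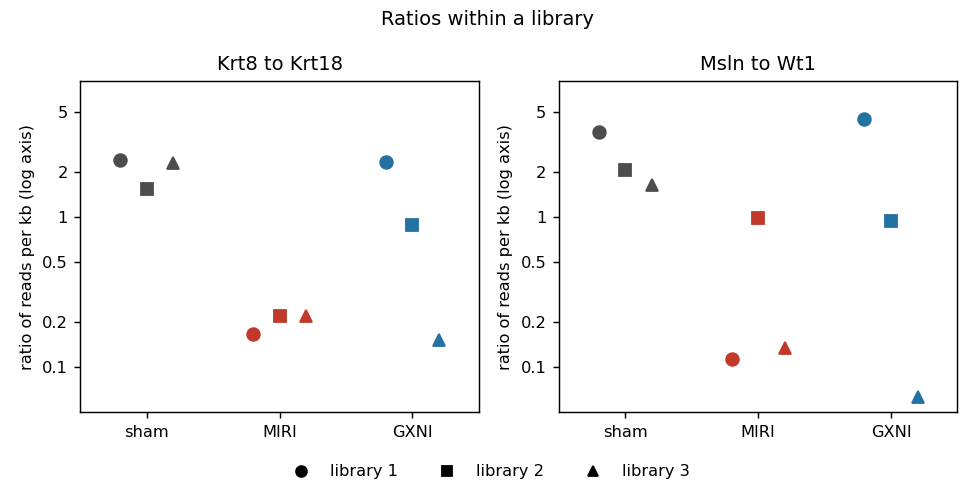
Ratio of Krt8 to Krt18 (left) and of Msln to Wt1 (right), each as reads per kilobase within a library on a logarithmic axis, by group, where circles, squares and triangles are libraries 1, 2 and 3. The sham libraries and GXNI 1 lie above 1 in both panels, and the MIRI libraries lie between 0.165 and 0.220 for Krt8 to Krt18.

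Ordered by mean level per kilobase, the sham hearts had Msln first at 1.58 CPM per kilobase, then Krt8 at 1.03, Upk1b at 0.986, Krt19 at 0.935 and Upk3b at 0.828. Wt1 followed at 0.601, Nkain4 at 0.599, Krt18 at 0.497, Chst4 at 0.179 and Muc16 at 0.0278 CPM per kilobase. Neighbours in this order differed by less than the larger of their SDs from the first to the eighth place. In the MIRI hearts Krt18 came first at 1.97 and Wt1 second at 1.24 CPM per kilobase, with Msln at 0.417.

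The 10 genes fell into different patterns. Over the 9 libraries, the log2 CPM of Msln, Muc16, Upk3b, Upk1b, Chst4 and Nkain4 had pairwise Pearson correlations of 0.843 to 0.998 (15 pairs, median 0.928), and without GXNI 1 of 0.787 to 0.998. Krt8 went with these 6 genes at r of 0.79 to 0.91, and without GXNI 1 at 0.71 to 0.85. Krt19 had r of 0.39 to 0.62 with them, but of -0.13 to 0.38 without GXNI 1. Wt1 had r of -0.29 to -0.04 with the same 6 genes, and of -0.81 to -0.64 over the 8 libraries without GXNI 1. Krt18 and Wt1 had r of 0.88 with each other. These are descriptions over libraries that share depth and composition, and several of the genes were at 0 in the same libraries.

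Seen by heart, GXNI 1 was the highest of all 9 for all 10 genes, by 1.34 times over the next heart for Muc16 up to 3.83 times for Krt8. GXNI 3 was the lowest heart, alone or tied at 0, for 7 of them and had 5 members without a read, MIRI 1 had 4 and MIRI 3 had 2. In MIRI 1 and GXNI 3, 8 of the 10 members were under every sham heart. The number was 7 for MIRI 3, 4 for MIRI 2, 3 for GXNI 2 and 0 for GXNI 1.

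**Figure D3:**
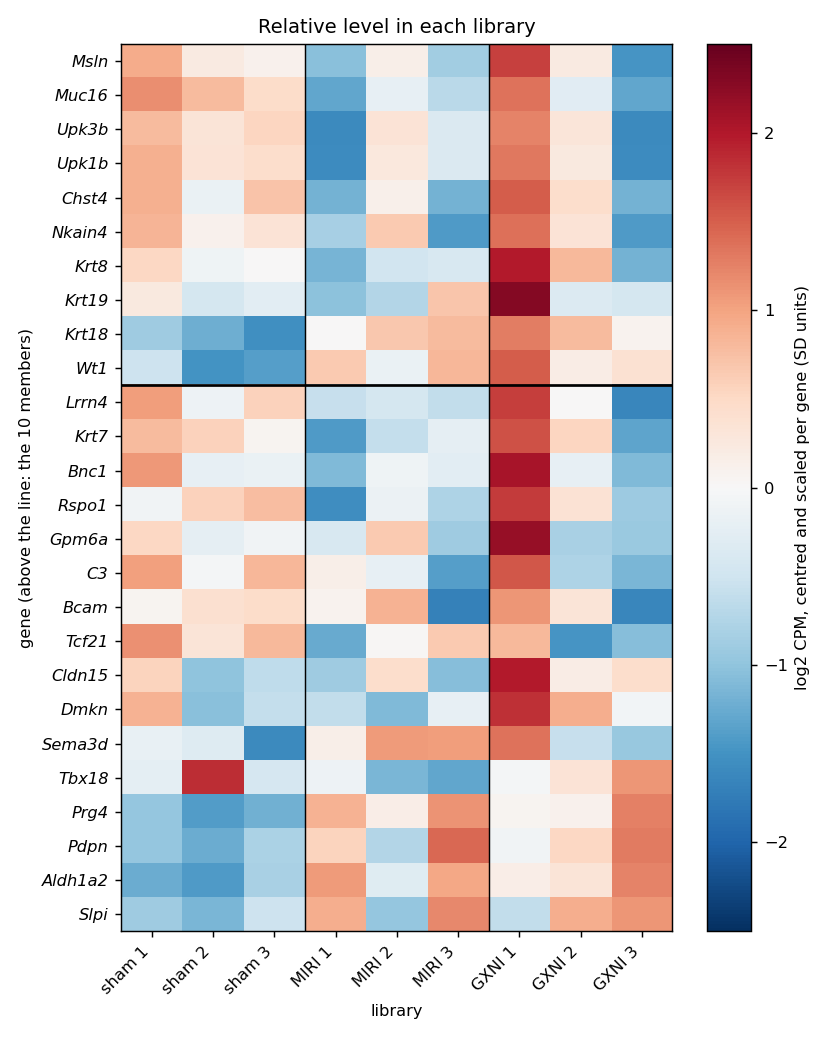
Log2 CPM of the 10 members (above the line) and of 16 other mesothelial and epicardial genes with at least 30 reads in all, centred and scaled per gene in SD units, in each of the 9 libraries. Blue in MIRI 1, MIRI 3 and GXNI 3 marks the low levels of Msln, Muc16, Upk3b, Upk1b, Chst4 and Nkain4 there, and red in the column of GXNI 1 its high levels of all 10 members.

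The groups were compared with the quasi-likelihood F test of edgeR, and a gene was called when it changed by 1.5 times or more with an unadjusted P-value of at most 0.01, as in the methods of the study. In I/R against sham, 8.38% of 15207 genes were called, and of the 9 members past the filter on low counts 2 were called, Krt18 and Wt1, both higher. Their groups did not overlap either, which held for 16.8% of all genes tested. In MIRI against sham, 8.97% of 14644 genes were called. Krt18 and Wt1 were again the 2 members called of 8 tested. Over all 10 members, tested or not, the groups did not overlap for 5 (2 higher and 3 lower, the latter Krt8, Upk1b and Muc16). Among all genes tested, which leaves out those below the filter, the groups did not overlap for 33.7%. DESeq2, which called 8.07% of 27898 genes, and edgeR without the filter, which called 8.62% of 27901, also called Msln and Muc16 lower in that comparison. These shares describe genes chosen for their values, and nothing is read from them.

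In GXNI against MIRI, 0.0203% of 14762 genes were called by edgeR, and 0 of the 8 members tested. Of all genes, 47 had an unadjusted P-value under 0.05. DESeq2 called 0.0391% and edgeR without the filter 0.0356% of all genes, with Krt8 as the 1 member called by each. The groups overlapped for all 10 members in that comparison, against 2.67% of genes without overlap. In GXNI against sham, 4.21% of 14695 genes were called, among them Krt18 and Wt1 of the 9 members tested, and 29.4% had groups without overlap, the same 2 members included. At a Benjamini-Hochberg adjusted P-value of at most 0.05, edgeR called 0 members in each of the 4 comparisons.

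The calls depended on single hearts. Krt18 was called in each comparison with sham whichever library was left out. Wt1 was no longer called in I/R against sham without sham 2 or sham 3, in MIRI against sham without sham 2, sham 3, MIRI 1 or MIRI 3, and in GXNI against sham without sham 2, sham 3 or GXNI 1. Without MIRI 2, 7 of the 9 members tested were called in MIRI against sham, in a fit that called 30.2% of 15207 genes. Msln, Upk3b, Upk1b, Muc16 and Nkain4 were lower there, and Krt18 and Wt1 higher. Without MIRI 2 and GXNI 3, 4 of the 8 members tested were called in GXNI against MIRI, where 4.99% of 14984 genes were called. They were Msln, Upk3b, Krt8 and Nkain4, all higher. Krt8 was then also called higher in GXNI against sham, where 3.57% of genes were called. Without GXNI 3 alone, Krt8 was called higher in GXNI against MIRI (0.0661% of genes called). Muc16 was called lower in MIRI against sham without sham 3 (3.58% of genes called) and in GXNI against sham without GXNI 1 (17.8%). The members were chosen with their values known, and MIRI 2 and GXNI 3 were singled out from the same data. Nothing is therefore read from these counts of calls.

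The median log2 fold change over the 10 members was -1.63 in MIRI against sham, 2.87 in GXNI against MIRI, 0.96 in GXNI against sham and 0.20 in I/R against sham. Over all genes with reads it was -0.01, 0.02, 0.02 and 0.07 in the same order. The comparisons share libraries with one another, so these medians are not independent. Without GXNI 1 the median was 0.15 in GXNI against MIRI, -1.34 in GXNI against sham and -1.52 in I/R against sham, so that 1 heart set its size or its direction in each. Without MIRI 2 it was -3.52 in MIRI against sham. Without both MIRI 2 and GXNI 3 it was 4.88 for GXNI against MIRI, 1.38 for GXNI against sham and 0.56 for I/R against sham.

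**Figure D4:**
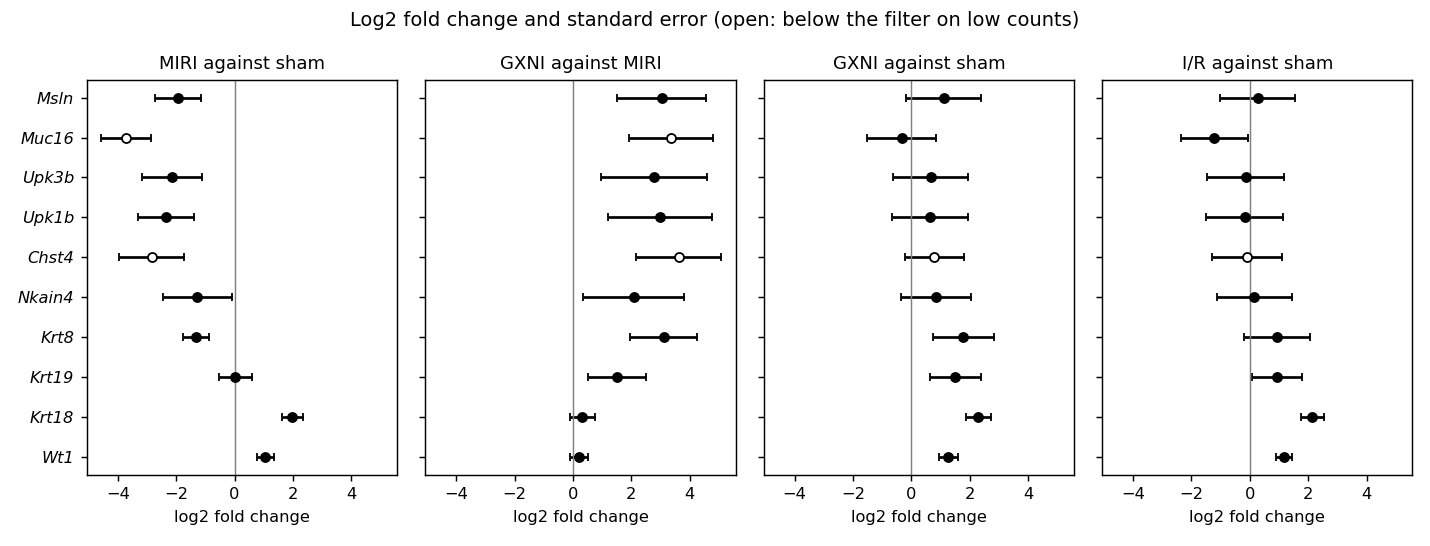
Log2 fold change (points) with its standard error (bars) of the 10 members in the 4 comparisons, where open points mark genes below the filter on low counts. Krt18 lies at 1.99, 2.30 and 2.15 in the comparisons with sham, and Msln at -1.94 for MIRI against sham and at 3.04 for GXNI against MIRI, where its standard error was 1.52.

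Another 18 genes known from mesothelium or epicardium were set beside the members. This list was also made with earlier results of the data known. In I/R against sham, 4 of the 15 tested were called higher and 0 lower, where 8.38% of all genes tested were called in either direction. The median over the 18 was 0.23. The 4 were Aldh1a2, an enzyme of retinoic acid synthesis, Prg4, the lubricant glycoprotein lubricin, Pdpn, a membrane glycoprotein of mesothelial and lymphatic cells, and Slpi, a secreted inhibitor of leukocyte proteases. The other 11 lay between -0.47 for C3 and 0.69 for Dmkn.

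Aldh1a2 had 102, 91 and 162 counts in sham hearts, 1406, 254 and 1357 in MIRI hearts, and 497, 593 and 1368 in GXNI hearts. All I/R hearts were above all sham hearts, with a log2 fold change of 2.87 ± 0.57. Prg4 (2.77 ± 0.48) and Pdpn (2.58 ± 0.68) also had groups without overlap, as had 16.8% of all genes tested. Slpi reached 4.09 ± 1.23, but with 8 counts in MIRI 2 and 18 in GXNI 1 it overlapped the 7 to 20 counts of the sham hearts.

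Other genes of the list varied with the 6 members that were low in MIRI 1, MIRI 3 and GXNI 3. The mean of Msln, Upk3b, Upk1b, Muc16, Chst4 and Nkain4 had r over 9 libraries of 0.92 with Lrrn4, 0.91 with Krt7, 0.89 with Bnc1 and 0.88 with Rspo1, and of -0.71 with Aldh1a2 and -0.77 with Slpi. Lrrn4 encodes a leucine-rich repeat membrane protein, and its counts were 22, 4 and 11 in sham, 2, 2 and 2 in MIRI, and 65, 5 and 0 in GXNI hearts. Krt7, a type II keratin of simple epithelia, had 41, 32 and 13 counts in sham, 1, 4 and 10 in MIRI, and 158, 30 and 1 in GXNI hearts. In MIRI against sham Krt7 fell by 2.59 on the log2 scale (SE 0.70). Among the 13 of the list tested there, Krt7 was the 1 gene called lower and 4 were called higher. Of all genes tested, 8.97% were called in either direction. The transcription factors Tbx18 and Tcf21 of the embryonic epicardium were not called, with -0.17 ± 0.22 and -0.38 ± 0.22 in I/R against sham.

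Several defining markers of other epithelia were at or near 0, while others had reads in every library. Among uroplakins and keratins of other epithelia, Upk3a, Krt5, Krt15 and Krt17 had no read in any library, and Upk2 had at most 2 per library. Krt14 had 53 reads in GXNI 1 and 23 in GXNI 2, and at most 4 elsewhere. Krt80, a keratin of many epithelia, had 56 to 76 reads in sham, 64 to 233 in MIRI and 58 to 141 in GXNI hearts, and Upk1a had 2 to 17 reads per library. Among markers of lung and other epithelia, Cldn18 had no read, and Epcam, Sftpc, Sftpa1, Scgb1a1 and Foxj1 had at most 2 per library. Cdh1, the gene of E-cadherin, had 71, 98 and 64 reads in MIRI 1, MIRI 3 and GXNI 3, at most 15 in the other I/R hearts and 0 to 7 in sham hearts. Trp63 had 6 to 23 reads per library, Ager 3 to 20 and Sftpb 1 to 11. Of this list 0 of the 3 genes tested were called in I/R against sham, and its summed level was 0.843 to 1.83 CPM in sham, 1.88 to 6.06 CPM in MIRI and 2.33 to 4.76 CPM in GXNI hearts.

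Markers of other cells and of injury varied between the same hearts. The 7 neutrophil markers summed to 638 and 550 CPM in MIRI 1 and MIRI 3 and to 573 CPM in GXNI 3, the hearts with the lowest Msln. They summed to 25.5 CPM in MIRI 2, 46.6 CPM in GXNI 1 and 199 CPM in GXNI 2, against 28.5 to 53.4 CPM in sham hearts. The 7 injury and stress genes, such as Ankrd1 and Timp1, were at 11898 CPM in MIRI 1, 10673 CPM in MIRI 3 and 13887 CPM in GXNI 3, and at 3420 CPM for MIRI 2, 2217 CPM for GXNI 1 and 6957 CPM for GXNI 2.

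The 7 fibroblast markers summed to 1945 CPM in GXNI 1, the highest of the 9 libraries, and to 673 CPM in GXNI 3, the lowest. They were between 878 and 1179 CPM in MIRI hearts and between 1200 and 1440 CPM in sham hearts. The part of these neutrophil, injury and fibroblast levels in the values of the members was not tested.

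Among 14691 other genes with a mean count of at least 10, those most like the mean of the 10 members over the 9 libraries were Itgb5 (r = 0.98), Adam11 (0.96), Fam222a (0.95), Anxa8 (0.95), Ltbp3 (0.94) and Col3a1 (0.94). Itgb5 encodes an integrin subunit and Col3a1 a collagen of fibroblasts. All of the 15 most like genes were highest in GXNI 1. The ranking itself favours such genes, since all 10 members were highest there. Of the 15, 0 were among the 18 other mesothelial and epicardial genes. The ranking depended on how it was made. Of these 15 genes, 12 were again among the 15 most like with a prior count of 2, but 3 were with Spearman correlations, and in settings chosen after the values were seen 2 were with the mean of the 6 genes that varied together and 1 was over the 8 libraries without GXNI 1.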

How the data were processed

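The deposited values are whole-number read counts for each gene in heart RNA, which the authors made with HISAT2 and featureCounts after filtering the reads. The submitters' processing notes name the build mm10. The tool versions and the strand setting were not given in the sources used here. Identifiers were paired with symbols of GENCODE M21 (GRCm38).

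Counts were fitted with edgeR 4.0.16 in R 4.3.3 (TMM, filterByExpr by group, quasi-likelihood F test, no covariate). The fits of GXNI, MIRI and sham used the 6 libraries of both groups, and I/R against sham used all 9. Genes below the filter were not called, and their fold changes come from an unfiltered fit. Correlations used log2 CPM with a prior count of 0.5. The members, the gene lists and the rule for named genes (all members, listed genes past the filter, defining markers at or near 0, and the 15 genes most like the member mean, of which 6 are printed) were chosen with earlier results of these data known.

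The alternatives were DESeq2 1.42.0, RLE size factors, no filter, a prior count of 2, a joint fit of the 9 libraries, a block for the replicate number, an adjusted P-value, and libraries left out. In counts simulated for I/R against sham, edgeR called 200 of 200 changed genes among 15078 genes run and 0.934% of the unchanged ones. The changed genes had more reads than several of the members and a large fixed fold change. All genes were given the same spread and no heart stood apart. These rates therefore say nothing of genes with low counts or of hearts that differ within a label. No pair of libraries agreed within sampling noise (smallest chi-square per degree of freedom 14.4).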

Additional observations from a re-analysis of the deposited data

Results flagged for a closer look

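Each of the 10 members was searched for a heart that stood away from the other 5 of the 6 I/R hearts, by the gap to the nearest heart divided by the whole range (Dixon's ratio at its 95% critical value). For 8 of the 10 this heart was GXNI 1. The limit is set to flag about 1 in 20 groups of normally distributed values, which CPM at low counts need not be. The share of all genes flagged in this way was not counted, so the 8 cannot be set against it. Since the members were chosen with their values known and vary together, the 8 are not independent. Among the genes of surface proteins, Msln was at 27.4 CPM in GXNI 1 against 3.12 CPM in the next I/R heart, Upk3b at 12.1 against 1.70, Upk1b at 8.59 against 0.999, and Muc16 at 1.59 against 0.118 CPM. Nkain4 was at 3.38 against 0.940 CPM, and Chst4 at 1.79 against 0.298 CPM. Among the keratins, Krt8 was at 15.9 against 4.17 CPM and Krt19 at 11.9 against 3.33 CPM. For Krt18 and Wt1 the same heart was the highest without passing the limit.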

How the results depend on the processing

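The number of genes called depended on the threshold, the tool and single libraries. In I/R against sham it was 1274, against 9 with edgeR at an adjusted P-value of at most 0.05 (2170 genes had such a P-value with DESeq2), 2196 with DESeq2 at the main threshold, 1474 without the libraries labelled MIRI 2 and GXNI 3, and 463 to 2298 with 1 library left out, the lowest without sham 2 and the highest without GXNI 1. In MIRI against sham it was 1313, against 2 with edgeR at the adjusted threshold (2025 genes had an adjusted P-value of at most 0.05 with DESeq2), 2406 without the filter, 800 with all 9 libraries in 1 fit, 2251 with DESeq2, 4592 without the libraries labelled MIRI 2 and GXNI 3, and 514 to 4592 with 1 library left out, the lowest without sham 2. In GXNI against MIRI it was 3, against 0 at the adjusted threshold with edgeR and with DESeq2 (47 and 91 genes had an unadjusted P-value under 0.05), 10 without the filter, 9 with all 9 libraries, 11 with DESeq2, 748 without both doubtful libraries, and 1 to 12 with 1 left out, the lowest without GXNI 2 and the highest without MIRI 2. In GXNI against sham it was 618, against 0 with edgeR at the adjusted threshold (2914 genes had an unadjusted P-value under 0.05, and 834 an adjusted one of at most 0.05 with DESeq2), 1425 without the filter, 1401 with DESeq2, 535 without both doubtful libraries, and 175 to 2665 with 1 library left out, the lowest without sham 2 and the highest without GXNI 1. Fewer libraries or genes enter several of these fits, and other causes were not tested.

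The member median in MIRI against sham was -3.52 without the libraries labelled MIRI 2 and GXNI 3 and -3.52 to -1.07 with 1 library left out. In GXNI against MIRI it was 0.15 to 4.28 with 1 library left out. In I/R against sham it was -1.52 to 0.94 and in GXNI against sham -1.34 to 1.52 with 1 library left out. With all 9 libraries in 1 fit the median of I/R against sham was -0.32, on the other side of 0 from its 0.20. For the log2 fold changes of single members, 525 alternative values moved by less than the spread between libraries and 19 by more. Single hearts such as GXNI 1 widen that spread, so the 525 do not show that the changes were stable.

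The replicate numbers did not pair the libraries (same-number correlations of -0.44 to 0.70, and 2 of 9 libraries correlated best with their own number in both other groups). With the replicate block, 1501, 1065, 3 and 573 genes were called in I/R against sham, MIRI against sham, GXNI against MIRI and GXNI against sham, and the member medians were -0.48, -1.93, 1.46 and 0.26. The calls of members did not change under the block. Low counts limited Muc16 and Chst4, for which 3 counts made up the whole MIRI group.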
